A study of Mus musculus with 16 samples.

Results

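The transcripts described here belong to the central carbon metabolism of the early mouse embryo. They cover glucose uptake, glycolysis, the fate of pyruvate, the tricarboxylic acid (TCA) cycle and the pentose phosphate pathway. The list names 52 genes by their place in these pathways, and each gene was read from the probe set (a group of short oligonucleotides for 1 transcript) with the highest mean log2 value over all arrays. Of the 52, 48 have a probe set annotated to that gene alone, and 46 of these passed the filter on dim probe sets and were tested, out of 15274 genes tested in all. Gpi1, Eno1, Mpc2 and G6pdx have no such probe set and are not analysed here. Eno2 and Pdk4 were too dim to be tested.

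The embryos were reconstructed at the pronuclear stage and sampled as two-cell embryos. BBB embryos held a maternal and a paternal pronucleus of the B6 strain in B6 ooplasm. In BCB embryos the maternal pronucleus came from the C3H strain, while the paternal pronucleus and the ooplasm were B6, so the ooplasm and the paternal genome are shared by all groups. Each kind was studied untreated and with α-amanitin (α-amantin by the labels' spelling), a toxin that blocks RNA polymerase II, which gives 4 groups of 4 arrays. The labels give no dose, duration, embryo number, embryo age or culture medium, and they do not say whether the replicates came from separate embryo collections, so p-values measure the spread between these samples, which may be technical.

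Cleavage-stage mouse embryos are known for their preference for pyruvate and lactate over glucose as fuel, with glycolysis gaining in importance towards the blastocyst. Glycolysis splits glucose into pyruvate, lactate dehydrogenase interconverts pyruvate and lactate, and the pyruvate dehydrogenase complex commits pyruvate to the TCA cycle. The pentose phosphate pathway branches off at glucose 6-phosphate and supplies NADPH and ribose for nucleotides. An embryo at this stage carries a store of RNA from the oocyte, part of which is degraded while its own genome becomes active, and amanitin prevents the new synthesis.

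The deposited intensities stand on a linear scale, and each array was scaled so that its mean without the top and bottom 2% of values is about 150. Of the markers of the two-cell stage, all 7 that could be tested were lower with amanitin in both kinds, and their summed intensity went from 14743 to 16379 on the untreated BBB arrays to between 610 and 912 on the treated ones. Of 10 oocyte markers, 9 were higher in BBB and 8 in BCB and none was lower on the deposited scale, while none was higher and 7 and 8 were lower on the poly-A control scale described below. Cumulus and granulosa cell markers summed to between 2229 and 2609 on the untreated BBB arrays and to between 553 and 652 on the treated ones. Most of that sum was Amhr2, which fell from 2086 to 58.9 in BBB, while the defining marker Amh stood at 1.77 and Foxl2 at 51.8 in untreated BBB. Of the 11 markers of these cells that were tested, 6 were higher and 1, Amhr2, lower in BBB, and 5 and 1 in BCB, on the deposited scale, and none was higher on the poly-A control scale. Those higher in both kinds were Cyp11a1 (0.93 and 1.28), Has2 (0.75 and 1.37) and Kitl (0.80 and 0.69). The part of other cells in the results was not tested. Whole embryos were measured, and all samples are labelled as two-cell embryos. The labels give no number of embryos, so fewer embryos and less RNA per embryo cannot be told apart.

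With amanitin most of the tested carbon metabolism transcripts were called changed in each kind, in both directions on the deposited scale and lower alone on the poly-A control scale. In BBB embryos 17 of the 46 tested members were higher and 18 lower, and 11 did not pass the test. These shares, 37% and 39.1%, stand beside 37.1% of all genes tested called higher and 33.1% called lower in that comparison. In BCB embryos 18 members were higher (39.1%, beside 39.9% of all genes) and 18 lower (39.1%, beside 31.9%), so the members were called about as often as genes in general. The median log2 difference was 0.10 over the members and 0.11 over all genes in BBB, and 0.09 and 0.17 in BCB. A call is an adjusted p under 0.05 in limma after Benjamini-Hochberg adjustment over all tested probe sets. Log2 differences are of log2(intensity + 16) and folds are taken from them, which understates the change of dim genes. A fold is therefore not the ratio of the mean intensities printed.

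Across the kinds, 15 members were higher in both, 18 were lower in both, and none was called in opposite directions. By the probe set read for each gene, Pdk2 and Ogdh were called in BBB alone, and Tpi1, Pdp1 and Suclg1 in BCB alone. The sign of the difference was shared by 45 of 46 members. The 2 amanitin effects of a member differed by a median of 0.127. The glucose transporter Slc2a3 and the 3 tested members of the pentose phosphate pathway had some of the deepest falls, and the 4 largest falls in BBB were those of Slc2a3, Pgd, Taldo1 and Pdhb. The 4 largest rises in BBB were those of Dlst, Me1, Idh1 and Slc2a1.

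**Figure D1:**
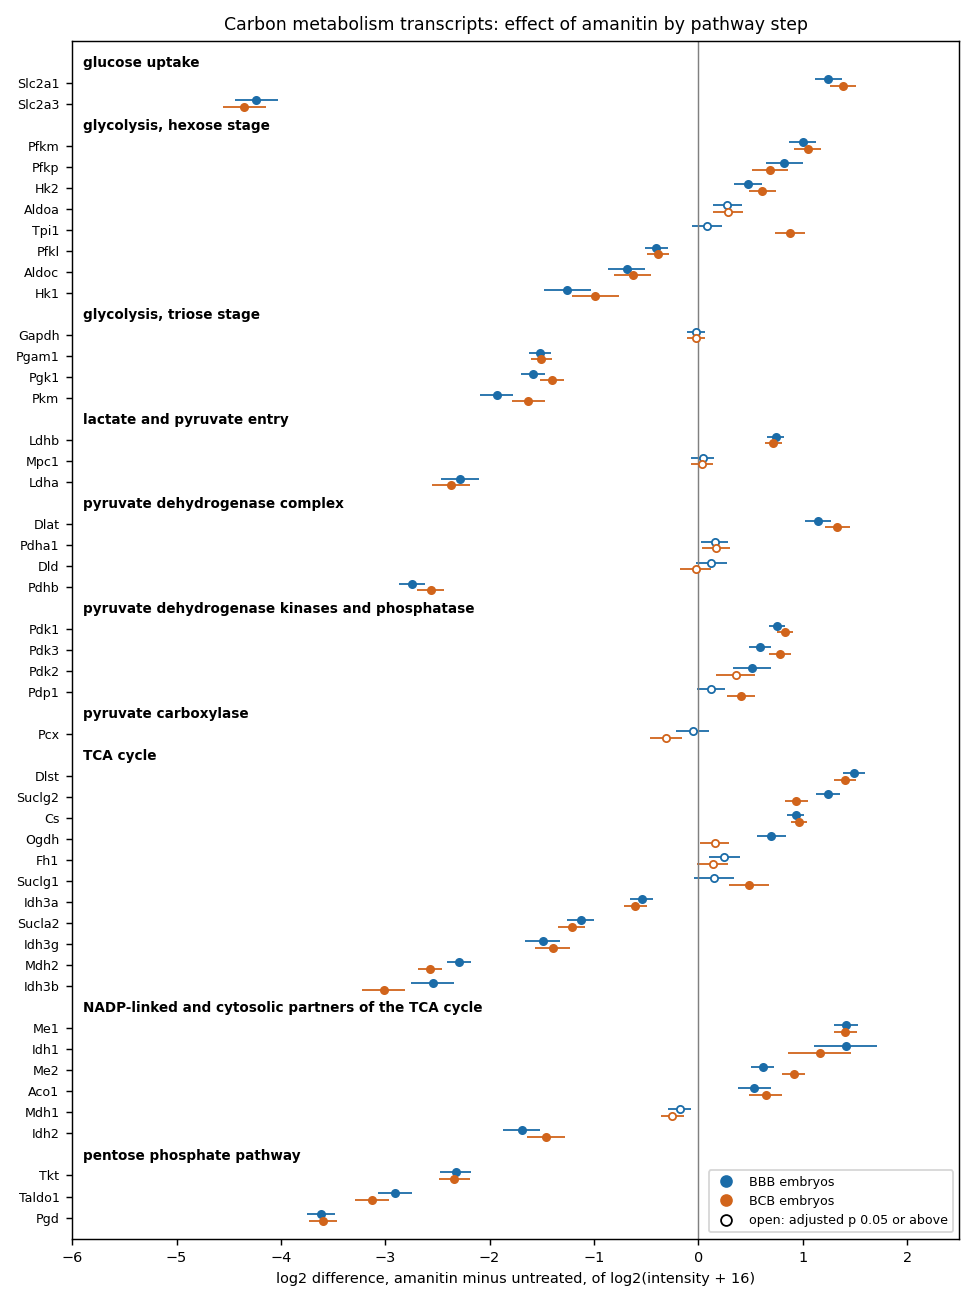
Log2 difference of amanitin minus untreated embryos (x axis, of log2(intensity + 16)) for the 46 tested members, grouped by pathway step, in BBB (blue) and BCB (orange), with bars for the standard error and open points for an adjusted p of 0.05 or above. The 18 members lower in both kinds reach −4.35 (Slc2a3 in BCB), and the rises stay at or below 1.49 (Dlst in BBB), on the deposited scale, while on the poly-A control scale all but Idh1 in BBB (0.13) of the members called higher are below 0.

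The direction of the rises depends on how the arrays are put on 1 scale, and that of the falls does not. Exogenous control RNAs were brighter on the amanitin arrays, by 0.55 in BBB and 0.81 in BCB for the hybridization controls and by 1.86 and 1.88 for the poly-A controls in log2 units, and so was 18S ribosomal RNA (1.26 and 1.63). An exact permutation test, two-sided, gave p = 0.0286 for each of them, the smallest that 4 against 4 arrays allow (adjusted p 0.04). The 75th percentile of an array fell from 118.5 to 87.4 in BBB and from 117 to 89.3 in BCB. With the arrays scaled to the hybridization controls, 8 members were higher and 23 lower in BBB, and 4 and 27 in BCB. Of all 15274 genes, 3207 were higher and 6670 lower in BBB on that scale, and 2292 and 7394 in BCB. Scaled to the poly-A controls, no member was higher and 43 were lower in each kind, and none was higher at an unadjusted p under 0.05 either. Most genes were lower on this scale, with 154 higher and 12624 lower in BBB, and 126 and 12421 in BCB. All 18 members called lower as deposited were lower under both scalings, in either kind. The median of all genes moved from 0.11 to −0.25 and −1.18 in BBB under these scalings and from 0.17 to −0.37 and −1.13 in BCB. A rise below is therefore a rise relative to the bulk of transcripts on the deposited scale. Whether the amount of such a transcript per embryo rose was not tested. Quantile normalization gave 22 members higher and 17 lower in BBB and 23 and 18 in BCB, and centring on the median gave 26 and 16, and 25 and 17. Over all genes quantile normalization gave 6442 and 4565 in BBB, and 6504 and 4554 in BCB. Centring gave 7742 and 4151 of all genes, and 7632 and 4223. The ratio of the 3′ to the 5′ probe set of Gapdh, a sign of RNA quality, was 12.4 ± 1.7 (SD) untreated and 11.8 ± 1.03 with amanitin in BBB, and 13 ± 1.04 and 11.9 ± 1.7 in BCB.

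**Figure D2:**
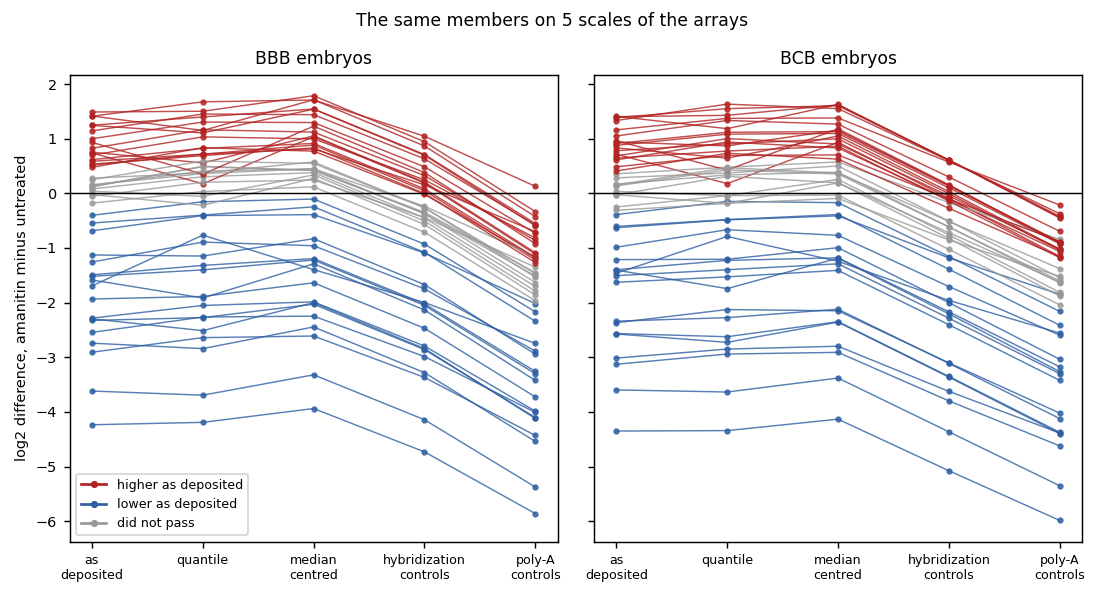
Log2 difference of amanitin minus untreated (y axis) of each tested member under 5 scalings of the arrays (x axis), BBB on the left and BCB on the right, with 1 line a member coloured by its call on the deposited scale. The lines of the 18 members called lower stay below 0 under all 5 scalings, while those called higher reach at most 0.13 (Idh1 in BBB) on the poly-A control scale.

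Glucose enters the embryo through facilitative transporters, and the pair among the members went opposite ways with amanitin on the deposited scale, with Slc2a1 higher and Slc2a3 lower in both kinds. Slc2a3 encodes GLUT3, a high-affinity glucose transporter. Its intensity was 1594, 1539, 1599.8 and 1481 on the 4 untreated BBB arrays and 1819.6, 2077, 1808 and 1699 on the untreated BCB arrays. With amanitin it was 64, 103, 96.3 and 28.9 in BBB and 77.9, 54.4, 93.5 and 79.9 in BCB. Every treated array lay far below every untreated one. The log2 difference was −4.24 ± 0.204 (SE) in BBB, 18.8-fold lower (adjusted p 1.01e-14), and −4.35 ± 0.204 in BCB, 20.4-fold lower (adjusted p 6.23e-15). This was the deepest fall of any member in both kinds.

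Slc2a1 encodes GLUT1, the widely expressed basal glucose transporter. It stood at 314, 295, 308 and 309 in untreated BBB and at 269, 260.2, 220.5 and 331 in untreated BCB embryos, against 927, 733, 637 and 728 with amanitin in BBB and 829, 791, 636 and 665 with amanitin in BCB. All 8 treated arrays lay above all 8 untreated ones. The difference was 1.25 ± 0.127 in BBB (adjusted p 6.1e-09) and 1.39 ± 0.127 in BCB (adjusted p 9.76e-10). On the hybridization control scale it was still above 0 (0.71 and 0.61), and on the poly-A control scale it was −0.55 and −0.42.

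The hexose stage of glycolysis, from glucose to the triose phosphates, was split among isoforms. Of its 8 tested members, 3 were higher and 3 lower in BBB, and 4 and 3 in BCB, on the deposited scale. Genes in general were higher in 37.1% and lower in 33.1% of cases in BBB, and in 39.9% and 31.9% in BCB. No pathway step was tested against these shares. Hexokinase traps glucose as glucose 6-phosphate. Hk1 fell with amanitin, from 204, 246, 229 and 250.5 to 122, 74.3, 94.6 and 68 in BBB and from 125, 248, 251 and 257 to 139, 109, 52.6 and 116 in BCB. In BCB the groups overlapped, since untreated replicate 1 lay below treated replicate 1, while in BBB they did not. The differences were −1.26 ± 0.226 (adjusted p 3.17e-05) and −0.99 ± 0.226 (adjusted p 0.000498).

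Hk2, the other hexokinase among the members, was higher with amanitin on the deposited scale. It read 119.5, 109, 102 and 98 untreated and 158, 151, 149.6 and 160.3 treated in BBB, and 135, 85.4, 120 and 117 untreated and 189, 204, 167 and 167 treated in BCB. The treated and untreated arrays did not overlap within a kind. Its rise was small, 0.47 ± 0.132 in BBB (adjusted p 0.00299) and 0.61 ± 0.132 in BCB (adjusted p 0.000269), and it was −0.02 and −0.11 on the hybridization control scale.

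Phosphofructokinase catalyses the committed step of glycolysis, and its 3 isoforms, named for liver, muscle and platelet, did not move together on the deposited scale. Pfkm was about 2-fold higher with amanitin (2 in BBB and 2.07 in BCB). Its arrays read 119.7, 144, 180.1 and 141 untreated and 259.5, 310.2, 309 and 349.6 treated in BBB, and 144, 142, 139 and 152 untreated and 316, 285, 369 and 296 treated in BCB, with no overlap. The log2 differences were 1 ± 0.129 (adjusted p 2.86e-07) and 1.05 ± 0.129 (adjusted p 1.33e-07). Pfkp also rose, by 0.82 ± 0.174 in BBB (adjusted p 0.000219) and 0.69 ± 0.174 in BCB (adjusted p 0.00136). Its arrays read 79.1, 99.6, 147 and 149 and then 198, 224, 237 and 208 in BBB, and 158, 109.9, 100 and 132 and then 164, 201, 223 and 255 in BCB, again with no overlap. On the hybridization control scale Pfkp was at −0.05 in BCB, and on the poly-A control scale both isoforms were below 0 in both kinds.

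Pfkl, the liver isoform, went the other way. It read 378, 341, 392 and 399.6 untreated and 278, 293, 258 and 298 with amanitin in BBB, and 427, 332, 350 and 373 untreated and 268, 293, 258 and 295 with amanitin in BCB, and the groups did not overlap within a kind. The fall was modest, −0.40 ± 0.107 in BBB (adjusted p 0.00201) and −0.39 ± 0.107 in BCB (adjusted p 0.00266). Its call ended in both kinds with quantile normalization (−0.15, adjusted p 0.211, and −0.15, adjusted p 0.231) and with centring on the median (−0.11, adjusted p 0.39, and −0.17, adjusted p 0.161). In BCB it also ended with the probe sets averaged (−0.20, adjusted p 0.0786).

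Aldolase cleaves fructose 1,6-bisphosphate. Aldoc was lower with amanitin in both kinds, from 58.6 ± 4.56 (SD) to 31.8 ± 13.6 in BBB (−0.69) and from 49 ± 7.14 to 26.1 ± 5.08 in BCB (−0.63), and its call in BBB ended with quantile normalization (−0.41). Aldoa did not pass the test, at 564 ± 67.2 and 694 ± 141 in BBB (0.28 ± 0.143, adjusted p 0.0915) and at 585 ± 81.5 and 721 ± 148 in BCB (adjusted p 0.0839). Of the other 4 probe sets of Aldoa, 1 was called higher in BBB and 2 in BCB. With the replicate number as a block, Aldoa passed in both kinds (adjusted p 0.0429 and 0.0388). It also passed in BBB without untreated replicate 3 (0.35, adjusted p 0.0468) or treated replicate 4 (0.35, adjusted p 0.0427), and in BCB without untreated replicate 1 (0.37, adjusted p 0.037) or treated replicate 4 (0.39, adjusted p 0.0226).

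Triose phosphate isomerase, Tpi1, which interconverts the triose phosphates, showed the largest difference between the kinds of any member in its response to amanitin. It read 294, 380.2, 399 and 462 untreated and 408, 337, 416 and 454 with amanitin in BBB, where the groups overlapped. In BCB it read 227, 302, 292 and 351 untreated and 561, 547, 619 and 467 with amanitin, with no overlap. The amanitin difference was 0.08 ± 0.141 in BBB (adjusted p 0.63) and 0.88 ± 0.141 in BCB (adjusted p 7.48e-06). All 3 tested probe sets of Tpi1 were called higher in BCB. In BBB 1 of the 3, not the set read here, was called higher too. Whether the kinds differ is addressed with the strain comparisons further on.

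The lower stage of glycolysis, from glyceraldehyde 3-phosphate to pyruvate, was lower with amanitin in 3 of its 4 tested members in both kinds on the deposited scale. Beside these stand 33.1% of all genes called lower in BBB and 31.9% in BCB on that scale. Pkm, Pgk1 and Pgam1 were called lower on all 5 scales. Gapdh was called lower after quantile normalization and on both control scales, and higher after centring on the median. On the poly-A control scale 12624 of all 15274 genes were lower in BBB and 12421 in BCB. Pkm, pyruvate kinase, makes pyruvate and ATP in the last step. Its intensities were 1051, 1124, 1284 and 1412 in untreated BBB and 701, 1103, 968 and 1000 in untreated BCB embryos. With amanitin they were 314, 299, 259.9 and 354 and 199, 324, 345 and 315. All treated arrays lay below all untreated ones, with differences of −1.93 ± 0.154 (adjusted p 8.61e-11) and −1.63 ± 0.154 (adjusted p 1.81e-09). Pgk1, phosphoglycerate kinase, the first ATP-producing enzyme of the pathway, fell from 3237 ± 140.5 to 1071 ± 109 in BBB (−1.59) and from 3411 ± 223 to 1301 ± 308 in BCB (−1.41). Pgam1, phosphoglycerate mutase, fell from 853 ± 96.8 to 286 ± 14.1 in BBB and from 876 ± 49.8 to 299 ± 27.8 in BCB (−1.52 and −1.51).

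Gapdh, glyceraldehyde 3-phosphate dehydrogenase, was the fourth. It stood at 1413 ± 83.2 and 1393 ± 115 in BBB (−0.02 ± 0.085, adjusted p 0.832) and at 1379 ± 60.1 and 1358 ± 131 in BCB (−0.03 ± 0.085, adjusted p 0.8). It was read from the array maker's control probe set at its 3′ end, the set with the highest mean log2 value among the 3 tested sets that name Gapdh alone, and neither of the other 2 passed in either kind. Its direction changed with the scale, at 0.28 in BBB and 0.19 in BCB after centring on the median, −0.22 and −0.18 after quantile normalization, and −1.86 and −1.88 on the poly-A control scale. Eno2, the neuronal enolase, was dim everywhere, with means of 5 in BBB and 11.4 in BCB untreated and 5.03 and 5.17 with amanitin, and was not tested.

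**Figure D3:**
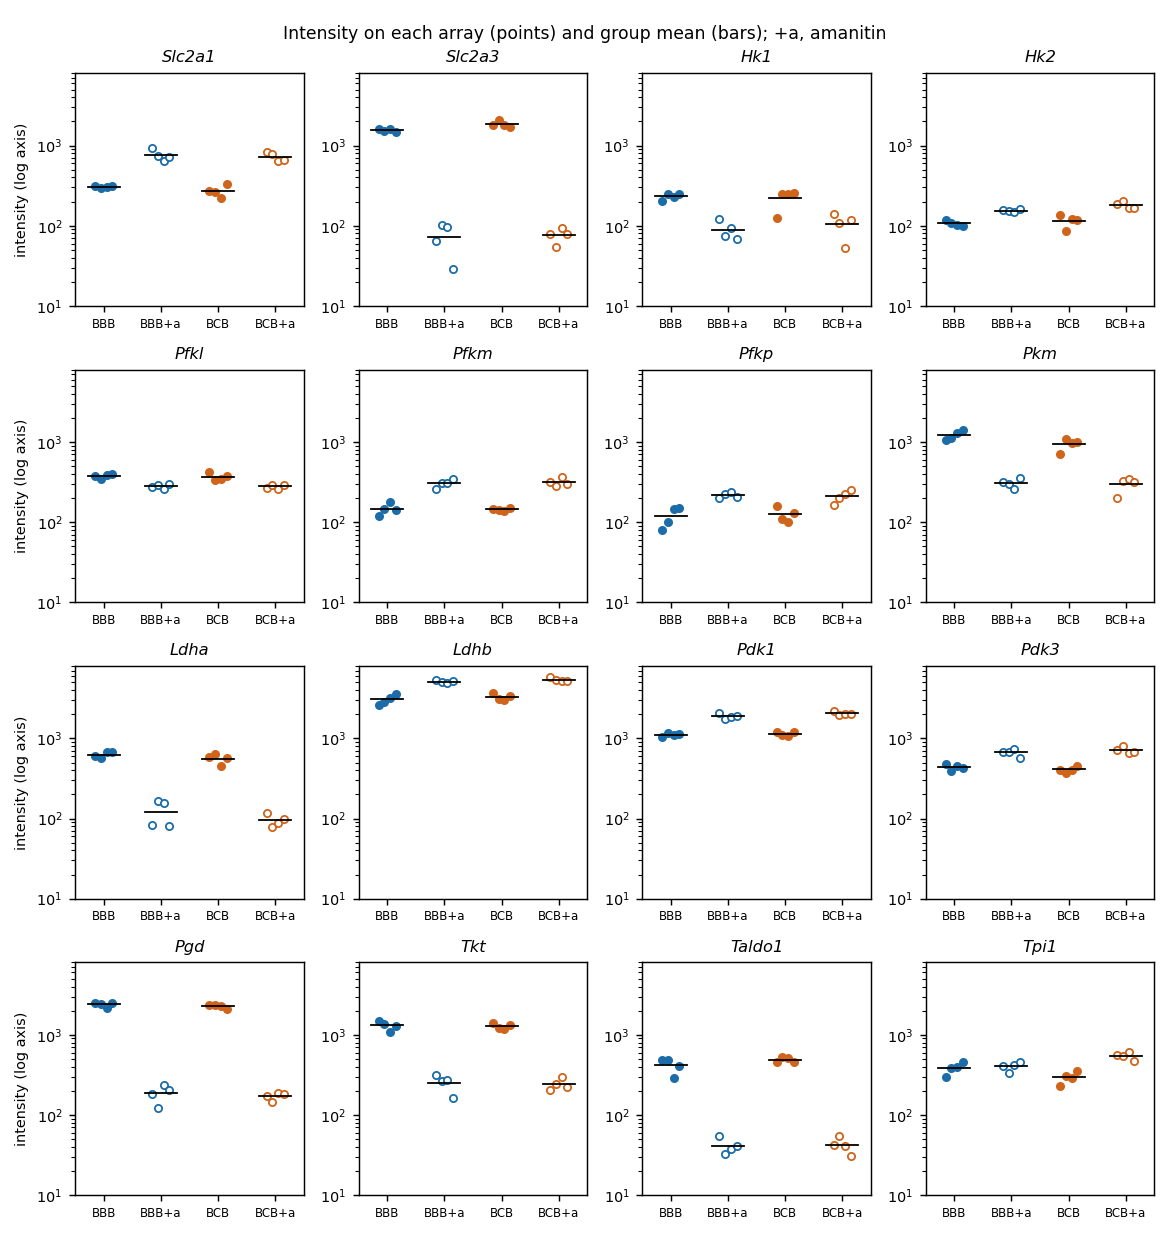
Intensity (y axis, log scale) of 16 members on each of the 16 arrays (points, filled for untreated and open for amanitin, blue for BBB and orange for BCB) with the group mean as a bar. Slc2a3, Pgd, Tkt, Taldo1, Pkm and Ldha drop in every treated array of both kinds, and Slc2a1, Pfkm, Pdk1 and Ldhb lie higher, all on the deposited scale. Tpi1, by the set read for it, was called higher with amanitin in BCB (mean 293 against 549) and not in BBB (384 against 404), on that scale. In BBB 1 of its other sets was called higher.

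The subunits of lactate dehydrogenase went opposite ways on the deposited scale. Ldha encodes the M subunit and Ldhb the H subunit of the tetramer, and the H form is the form the mouse egg is known for. Ldha read 597, 566, 669 and 685 untreated and 82.9, 168, 156 and 81.4 with amanitin in BBB, and 580.1, 632, 453 and 571 untreated and 119, 77.3, 88.3 and 98.2 with amanitin in BCB. No treated array reached an untreated one. The log2 difference was −2.28 ± 0.18 in BBB, 4.87-fold lower (adjusted p 7.18e-11), and −2.37 ± 0.18 in BCB, 5.16-fold lower (adjusted p 3.85e-11).

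Ldhb was bright and rose. It read 2635, 2826, 3186 and 3629 untreated and 5286, 4991, 4936 and 5169.7 treated in BBB, and 3639, 3083, 3025 and 3343 untreated and 5765, 5383, 5147 and 5215 treated in BCB, with no overlap. The rise was 0.74 ± 0.0822 in BBB (adjusted p 2.77e-08) and 0.72 ± 0.0822 in BCB (adjusted p 4.66e-08), and all 4 tested probe sets of the gene were called higher in both kinds. On the hybridization control scale it was 0.19 in BBB and −0.09 in BCB, so its direction flipped in BCB, and on the poly-A control scale it was −1.11 and −1.16. After quantile normalization the rise of Ldhb shrank to 0.17 in BBB (adjusted p 0.0454) and 0.18 in BCB (adjusted p 0.0414). That is below the median of all genes on that scale (0.22 and 0.23). Mpc1, a subunit of the carrier that takes pyruvate into mitochondria, was at 1033 ± 34.9 and 1067 ± 121 in BBB and 1109 ± 73.2 and 1149 ± 194 in BCB, differences of 0.04 ± 0.108 and 0.04 ± 0.108 (adjusted p 0.761 and 0.78).

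The flanks of the 2 subunit genes are shown because the subunits went opposite ways. The bases are the 140 just before the annotated start of transcription, 5′ to 3′ on the strand of the gene, from RefSeq on GRCm38.p6. Ldha lies on the plus strand (chr7:46845664-46845803) and Ldhb on the minus strand (chr6:142507958-142508097). Capitals mark any match, on either strand, to 6 motifs. The E box was searched as CACGTG and the GC box as GGGCGG. The CCAAT box was searched as its name spells it. The cyclic AMP response element was searched as TGACGTCA. For the ETS family the letters were CCGGAAG, and for the TATA box they were TATAAA.
Ldha: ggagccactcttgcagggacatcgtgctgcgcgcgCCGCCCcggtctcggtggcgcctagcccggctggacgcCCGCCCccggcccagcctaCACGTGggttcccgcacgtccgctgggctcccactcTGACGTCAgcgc
Ldhb: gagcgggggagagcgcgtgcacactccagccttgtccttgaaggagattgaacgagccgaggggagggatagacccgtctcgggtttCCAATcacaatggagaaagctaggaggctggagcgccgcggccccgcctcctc
The window of Ldha holds 1 E box, 2 GC boxes and 1 cyclic AMP response element, which lies 12 bases before the start. That of Ldhb holds 1 CCAAT box, 53 bases before the start, and none of the other 5 motifs. Over the 250 bases before the start, an E box is in 6.05% and a cyclic AMP response element in 1.62% of the 27025 mouse promoters in the table. A match is a description of letters and not a binding site.

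The pyruvate dehydrogenase complex, which turns pyruvate into acetyl-CoA, had 1 subunit higher, 1 lower and 2 not called in each kind on the deposited scale. The shares over all genes were 37.1% higher and 33.1% lower in BBB, and 39.9% and 31.9% in BCB. Pdhb, the beta subunit of the E1 enzyme, had 1 of the 4 largest falls in BBB. It read 2298, 2250.1, 2134 and 2324 untreated and 361, 417, 318 and 225 with amanitin in BBB, and 2019.8, 1952, 2092 and 2017 and 328, 281, 356 and 351 in BCB, with a wide gap between the groups. The differences were −2.74 ± 0.126 (adjusted p 4.44e-15) and −2.57 ± 0.126 (adjusted p 1.45e-14).

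Dlat, the E2 acetyltransferase that forms the core of the complex, rose. Its arrays read 131, 125, 127 and 137 untreated and 302, 283, 317 and 322 treated in BBB, and 102, 99, 88.8 and 116 untreated and 338, 270.4, 291 and 226 treated in BCB. The groups did not overlap in either kind. The rise was 1.14 ± 0.124 in BBB (adjusted p 1.97e-08) and 1.33 ± 0.124 in BCB (adjusted p 1.43e-09), and on the poly-A control scale the values were −0.58 and −0.37. Dld, the E3 dehydrogenase that the complex shares with the oxoglutarate dehydrogenase complex, did not pass, at 0.12 ± 0.148 in BBB (adjusted p 0.48) and −0.02 ± 0.148 in BCB (adjusted p 0.89). It was the 1 member whose sign differed between the kinds.

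Pdha1, the alpha subunit of E1 and the site of regulatory phosphorylation, gave 2 answers from its 2 probe sets. The set with the higher mean log2 value over 16 arrays, which was read for the gene, stood at 381 ± 32.8 and 430.3 ± 81.8 in BBB and 426 ± 59.9 and 480.1 ± 61.7 in BCB, and did not pass (0.16, adjusted p 0.31, and 0.17, adjusted p 0.268). Its other set fell from 862 to 50.6 in BBB (−3.90 ± 0.255) and from 830.0 to 76.4 in BCB (−3.20 ± 0.255). Ranked by mean linear intensity, this other set would have been read and Pdha1 called lower in both kinds, and Pdha1 was the 1 tested member for which that ranking chose another set.

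Pyruvate dehydrogenase kinases switch the complex off by phosphorylation, and phosphatases switch it on. Of the 4 tested members of this group, 3 were higher with amanitin and none lower in each kind on the deposited scale, and all of them were below 0 on the poly-A control scale. Among all genes 37.1% were higher and 33.1% lower in BBB, and 39.9% and 31.9% in BCB, on the deposited scale. This group was not tested against them. Pdk1 read 1046, 1158, 1107 and 1122 untreated and 2047, 1729, 1850.2 and 1898 with amanitin in BBB, and 1209, 1108, 1064 and 1197 untreated and 2179, 1957, 2034 and 2021 with amanitin in BCB. The treated arrays stood clear of the untreated ones. The rise was 0.75 ± 0.0767 (adjusted p 6.25e-09) and 0.83 ± 0.0767 (adjusted p 1.14e-09). Pdk3 rose by 0.59 ± 0.105 in BBB (adjusted p 3.04e-05) and by 0.78 ± 0.105 in BCB (adjusted p 5.74e-07). Its arrays read 475, 394, 458 and 427 and then 676, 679, 736 and 578 in BBB, and 408, 371, 405 and 454 and then 719.9, 812, 648 and 679.7 in BCB, with no overlap.

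Pdk2 was dim, and its rise was called in BBB and not in BCB. Its arrays read 15.9, 23.7, 20.8 and 30.6 untreated and 36, 50.1, 29.7 and 41.5 treated in BBB, and 27.3, 29.3, 16.5 and 27.4 untreated and 39.2, 21.2, 43 and 45.4 treated in BCB, and the groups overlapped in both kinds. The differences were 0.51 ± 0.184 (adjusted p 0.0173) and 0.36 ± 0.184 (adjusted p 0.09), and the interaction did not pass (adjusted p 0.929). The call in BBB ended without untreated replicate 1 (0.43, adjusted p 0.0661) or treated replicate 2 (0.42, adjusted p 0.0616), and Pdk2 passed in BCB without treated replicate 2 (0.52, adjusted p 0.0143). Pdk4, a kinase induced by fasting in other tissues, was not above the filter, at 3.5, 11.7, 16 and 6.7 in untreated BBB, 9.9, 5.1, 5.7 and 8 in untreated BCB, 4.3, 6.5, 1.7 and 4.7 in treated BBB and 9.8, 2.8, 3.4 and 4.9 in treated BCB embryos. Pdp1, a phosphatase that opposes the kinases, was at 0.12 ± 0.135 in BBB (adjusted p 0.449) and higher in BCB (0.41 ± 0.135, adjusted p 0.0104), with an interaction of 0.29 ± 0.191 (adjusted p 0.732). Pcx, pyruvate carboxylase, which makes oxaloacetate from pyruvate, was dim and did not pass (−0.05 ± 0.157, adjusted p 0.779, and −0.31 ± 0.157, adjusted p 0.0838). Of its 4 tested probe sets, 1, not the set read here, was called higher in BCB, and none was called in BBB.

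In the TCA cycle 4 of 11 members were higher and 5 lower in each kind on the deposited scale, and enzymes and even subunits of 1 enzyme moved apart. For all genes the shares were 37.1% higher and 33.1% lower in BBB, and 39.9% and 31.9% in BCB. The oxoglutarate dehydrogenase E2 subunit Dlst had the largest rise of any member in BBB. It read 393, 432, 541 and 506 untreated and 1339.6, 1372, 1252 and 1362 with amanitin in BBB, and 588, 439, 483 and 496 untreated and 1346, 1342, 1416 and 1276 with amanitin in BCB. The lowest treated array lay far above the highest untreated one. The rise was 1.49 ± 0.103 in BBB, 2.8-fold (adjusted p 7.25e-12), and 1.40 ± 0.103 in BCB, 2.64-fold (adjusted p 2.19e-11). It was above 0 on the hybridization control scale (0.94 and 0.61) and below it on the poly-A control scale (−0.33 and −0.44).

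Citrate synthase, Cs, which starts the cycle, rose from 3211 ± 381 to 6113 ± 265 in BBB (0.93 ± 0.0797) and from 3204 ± 289.9 to 6249.8 ± 407 in BCB (0.96 ± 0.0797). Ogdh, the E1 subunit that works with Dlst, was higher in BBB (0.70 ± 0.142, adjusted p 0.000135) and at 0.15 ± 0.142 in BCB (adjusted p 0.341), with an interaction of −0.54 ± 0.2 (adjusted p 0.401). Succinate-CoA ligase pairs a shared alpha subunit, Suclg1, with either a GTP-forming (Suclg2) or an ATP-forming (Sucla2) beta subunit. The beta subunits split. Suclg2 rose from 806 ± 117 to 1933 ± 319.9 in BBB (1.24) and from 793 ± 73.5 to 1532 ± 76.2 in BCB (0.94), while Sucla2 fell from 1218 ± 95.9 to 552 ± 83.6 (−1.13) and from 1152 ± 104 to 495 ± 112 (−1.21). On the poly-A control scale Suclg2 was below 0 too (−0.59 and −0.91), against −2.94 and −3.04 for Sucla2. Suclg1 was dim, at 0.15 ± 0.191 in BBB (adjusted p 0.509) and 0.49 ± 0.191 in BCB (adjusted p 0.0289). Its call in BCB ended without untreated replicate 2 or 4 or treated replicate 2 or 3, where the difference was 0.32 to 0.47 and the adjusted p 0.0534 to 0.138.

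All 3 subunits of the NAD-linked isocitrate dehydrogenase were lower in both kinds. Idh3b, a regulatory beta subunit, read 326, 283, 233 and 279 untreated and 41, 25.1, 62 and 19.5 with amanitin in BBB, and 261, 309, 367 and 334 untreated and 14.2, 26.1, 24.5 and 38.9 with amanitin in BCB. No treated array came near the untreated ones. The fall was −2.54 ± 0.207 in BBB (adjusted p 1.2e-10) and −3.02 ± 0.207, among the 4 largest, in BCB (adjusted p 6.02e-12). Idh3g, the gamma subunit, fell from 712 ± 151 to 244 ± 58 in BBB (−1.49) and from 668 ± 88.7 to 247 ± 59.6 in BCB (−1.40). Idh3a, the catalytic alpha subunit, fell least, from 615 ± 41.6 to 419 ± 60.2 (−0.54) and from 649.9 ± 52 to 422 ± 45.1 (−0.61), and its call in BBB ended with centring on the median (−0.25). The other probe sets of Idh3a went the opposite way, as given further on. Mdh2, the mitochondrial malate dehydrogenase that closes the cycle, fell from 2848 ± 60.4 to 572 ± 93.2 in BBB (−2.30) and from 2649.5 ± 89.9 to 437 ± 77.1 in BCB (−2.57). Fh1, fumarase, did not pass (0.25 ± 0.149, adjusted p 0.146, and 0.14 ± 0.149, adjusted p 0.43).

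The NADP-linked and cytosolic partners of the cycle were listed together with Me2, a mitochondrial enzyme. Of these 6 genes, 4 were higher and 1 lower in each kind on the deposited scale. Over all genes the shares were 37.1% higher and 33.1% lower in BBB, and 39.9% and 31.9% in BCB. Me1, the cytosolic malic enzyme, which yields NADPH and pyruvate, read 986, 931, 1324 and 1179 untreated and 2497, 3090.3, 2721 and 3580.3 with amanitin in BBB, and 1126, 1164, 933 and 994 untreated and 2706, 2987, 2601 and 2986 with amanitin in BCB. The groups lay far apart. The rise was 1.42 ± 0.113 (adjusted p 9.51e-11) and 1.41 ± 0.113 (adjusted p 1.05e-10), the largest of any member in BCB, and on the poly-A control scale it was −0.43 and −0.45. Me2, the mitochondrial malic enzyme, rose by 0.62 ± 0.111 in BBB and 0.91 ± 0.111 in BCB.

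The NADP-linked isocitrate dehydrogenases went opposite ways on the deposited scale. Idh1, the cytosolic enzyme, was dim and scattered, at 43.6, 3.9, 32 and 27.8 untreated and 106, 88.8, 131 and 50.6 with amanitin in BBB, and at 35.7, 24.4, 16 and 36.1 and 76.1, 41.9, 98 and 127 in BCB. Even so the treated arrays lay above the untreated ones. Its rise was 1.41 ± 0.301 in BBB (adjusted p 0.000244) and 1.16 ± 0.301 in BCB (adjusted p 0.00164), with the largest SE of any member, and on the poly-A control scale it was 0.13 and −0.21. Idh2, the mitochondrial enzyme, fell from 61.4 ± 9.33 to 8.03 ± 3.77 in BBB (−1.69) and from 66.2 ± 21.7 to 13.1 ± 1.33 in BCB (−1.46). Aco1, the cytosolic aconitase, rose by 0.54 ± 0.156 in BBB and 0.64 ± 0.156 in BCB, and was −0.00 and −0.14 on the hybridization control scale. Mdh1, the cytosolic malate dehydrogenase, did not pass (−0.18 ± 0.112, adjusted p 0.167, and −0.25 ± 0.112, adjusted p 0.0531), and its other 2 tested probe sets were called lower in both kinds. In BCB it passed without untreated replicate 3 (−0.33, adjusted p 0.0166) or treated replicate 1 (−0.29, adjusted p 0.0368). It also passed there with a pseudocount of 64 (adjusted p 0.0493) and the filter at the 60th percentile (adjusted p 0.0426). With the probe sets averaged it passed in both kinds (−0.53, adjusted p 0.00117, and −0.42, adjusted p 0.0067). It did not pass after quantile normalization (0.03 and −0.04) or centring on the median (0.12 and −0.03).

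The 3 tested members of the pentose phosphate pathway, Pgd, Taldo1 and Tkt, fell with amanitin in both kinds, by −2.33 to −3.62 in BBB and −2.34 to −3.60 in BCB, and they fell under every scaling tried. Calls of lower covered 33.1% of all genes in BBB and 31.9% in BCB on the deposited scale. On the poly-A control scale they covered 12624 of all 15274 genes in BBB and 12421 in BCB. Pgd, 6-phosphogluconate dehydrogenase, makes NADPH and ribulose 5-phosphate in the oxidative branch. It read 2502, 2456, 2153 and 2495 untreated and 181, 121, 237 and 203 with amanitin in BBB, and 2338, 2337, 2294 and 2076 untreated and 173, 145, 190.2 and 183 with amanitin in BCB. Every untreated array lay far above every treated one. The fall was 12.3-fold in BBB (−3.62 ± 0.135, adjusted p 1.13e-16) and 12.1-fold in BCB (−3.60 ± 0.135, adjusted p 1.19e-16), and all 4 tested probe sets of the gene were called lower.

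Transaldolase and transketolase carry out the non-oxidative branch, which links pentoses back to glycolysis. Taldo1, transaldolase, read 485, 489.5, 292 and 411 untreated and 54.8, 32.1, 38 and 41 with amanitin in BBB, and 464, 522, 506 and 462 untreated and 42.2, 55.2, 41.2 and 30.6 with amanitin in BCB. The untreated BBB arrays were spread, with replicate 3 lowest, and still far above the treated ones. The fall was −2.91 ± 0.164 in BBB (adjusted p 1.71e-13) and −3.13 ± 0.164 in BCB (adjusted p 4.82e-14). Tkt, transketolase, fell from 1306 ± 173 to 252 ± 63.1 in BBB (−2.33 ± 0.149) and from 1277 ± 102 to 241 ± 38.9 in BCB (−2.34 ± 0.149).

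The 140 bases before the annotated start of these 3 genes are shown because all of them fell together, in the same format and with the same motifs in capitals as for lactate dehydrogenase. They come from RefSeq on GRCm38.p6, Pgd from the minus strand (chr4:149166706-149166845), and Tkt (chr14:30548991-30549130) and Taldo1 (chr7:141392020-141392159) from the plus strand.
Pgd: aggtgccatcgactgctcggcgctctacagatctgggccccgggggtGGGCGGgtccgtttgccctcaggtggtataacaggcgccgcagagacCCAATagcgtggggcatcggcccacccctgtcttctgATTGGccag
Tkt: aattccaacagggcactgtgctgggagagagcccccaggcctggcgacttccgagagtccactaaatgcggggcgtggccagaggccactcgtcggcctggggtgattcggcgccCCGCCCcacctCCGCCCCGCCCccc
Taldo1: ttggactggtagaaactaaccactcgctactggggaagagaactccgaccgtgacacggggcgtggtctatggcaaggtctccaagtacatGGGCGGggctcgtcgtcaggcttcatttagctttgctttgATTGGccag
Pgd and Taldo1 each hold 1 GC box and a reverse CCAAT box 9 bases before the start, and Pgd holds another CCAAT box 46 bases before it. Tkt holds 3 GC boxes, all on the reverse strand, of which the last 2 share 1 base, and no CCAAT box. The GC content of the windows is 65.7% for Pgd, 70.7% for Tkt and 55.0% for Taldo1. Each of these motifs occurred among members of either direction on the deposited scale, and the directions were not tested against each other. Over the 250 bases before the start, a GC box was in 11 of the 16 promoters of members lower in both kinds and in 12 of the 14 of members higher in both, and a CCAAT box in 7 of 16 and 7 of 14, against 32.9% and 34.5% of all 27025 promoters. An E box was in 1 of 16 and 1 of 14, a cyclic AMP response element in 2 and none, an ETS motif (7.05% of all promoters) in 2 and none, and a TATA box (13% of all promoters) in none of either. Of the 52 members, 48 have an entry in the table.

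For several members the answer depended on the probe set. Of 31 members with more than 1 tested probe set, 5 had sets called in opposite directions in BBB (Pfkp, Cs, Idh3a, Ogdh and Tkt) and 2 in BCB (Cs and Idh3a), on the deposited scale. Cs was the brightest case. Besides the set read for the gene, a second rose by 0.77 in BBB and 0.82 in BCB, and another fell from 1033 to 248.5 in BBB (−1.99 ± 0.108) and from 939 to 264 in BCB (−1.78 ± 0.108). For Idh3a the set that was read fell, and the other 3, all dimmer, were called higher in both kinds. Their differences were 1.71, 1.79 and 0.78 in BBB and 1.34, 1.87 and 0.83 in BCB.

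The remaining cases rest on dim sets, whose lower group mean in BBB lay under the level of the filter (10.8 to 14.1 over arrays). Such a set can enter the test through its brighter arrays alone, which limits what the direction of its call shows. The other set of Ogdh fell from 18.3 to 1.85 in BBB (−0.91) and from 24.3 to 2.13 in BCB (−1.15). The other set of Pfkp fell from 23.5 to 8.58 in BBB (−0.74) and was not called in BCB (−0.41). One other set of Tkt rose from 9.15 to 36.3 in BBB (0.99) and was not called in BCB (0.52), while the remaining set fell like the one read (−1.71 in BBB). With the mean of a gene's sets in place of its brightest, Idh3a was higher in both kinds (0.93 and 0.86), Pdha1 lower (−1.87 and −1.52), Cs near 0 (−0.10 and 0.00), and Pfkp no longer called (0.04 and 0.14). Which transcripts or ends of a gene the sets read is not given in the annotation used here.

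**Figure D4:**
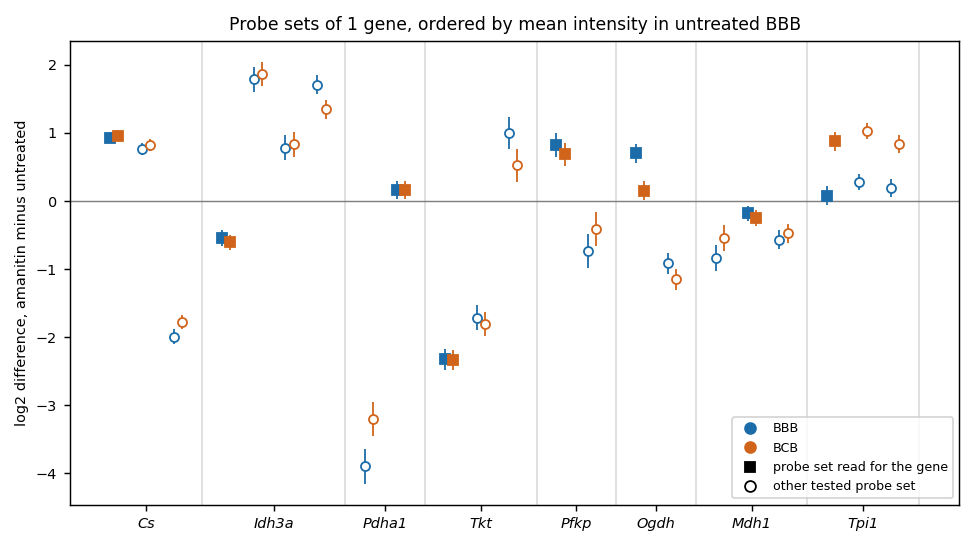
Log2 difference of amanitin minus untreated (y axis) for each tested probe set of 8 members, with bars for the standard error, in BBB (blue) and BCB (orange), squares for the set read for the gene and open circles for its other sets. The sets of Cs, Idh3a and Pdha1 lie far apart, while the 3 sets of Tpi1 lie between 0.84 and 1.03 in BCB and between 0.08 and 0.28 in BBB, on the deposited scale.

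No member passed the test for a difference by strain of the maternal pronucleus. In untreated embryos limma called none of the 46 members higher or lower in BCB than in BBB, beside 0.386% of all genes higher and 0.268% lower. With amanitin it called none, beside 0.0393% higher and 0.0393% lower. In the interaction, which takes the response to amanitin of BBB away from that of BCB, it called none, beside 0.0655% higher and 0.19% lower. At an unadjusted p under 0.05, 5, 4 and 2 members passed in these comparisons, which is 10.9%, 8.7% and 4.35% of them, against 7.07%, 10.7% and 8.05% of all genes. The median SE of a member's strain difference was 0.134 and that of the interaction 0.189. Differences about 3 times their SE did not pass, as Tpi1 with amanitin shows (0.43 ± 0.141, adjusted p 0.261), so the lack of calls does not show that the kinds are alike.

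The member nearest to a call was Tpi1. Its interaction was 0.80 ± 0.199 (unadjusted p 0.000586, adjusted p 0.129), and its other probe sets gave 0.75 ± 0.17 (adjusted p 0.0667) and 0.65 ± 0.186 (adjusted p 0.222). Untreated, the difference of Tpi1 in BCB minus BBB was −0.37 ± 0.141 (adjusted p 0.489), and the arrays overlapped. Over 27 alternatives, which include each array left out in turn, the interaction lay between 0.55 and 0.91, with adjusted p from 0.0506 without BBB replicate 1 to 0.729 on the poly-A control scale. With amanitin the difference between the kinds was 0.43 ± 0.141 (adjusted p 0.261), and all 4 BCB arrays lay above all 4 BBB arrays. The lowest adjusted p with amanitin was that of Mdh2, which was lower in BCB (−0.38 ± 0.114, adjusted p 0.217). Untreated, the other members at an unadjusted p under 0.05 were Pkm (−0.37), Dlat (−0.32), Ogdh (0.35) and Me2 (−0.24). With amanitin they were Suclg2 (−0.32) and Pgk1 (0.25), and Ogdh had an interaction of −0.54. None of these passed after adjustment.

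Other genes of these pathways also went both ways on the deposited scale. Of 85 further genes of these pathways, 73 were tested, and 21 were higher and 25 lower in BBB (28.8% and 34.2%), and 22 and 28 in BCB (30.1% and 38.4%), on the deposited scale. The shares of all genes were 37.1% and 33.1% in BBB and 39.9% and 31.9% in BCB, and no test compared these genes with the rest. On the poly-A control scale none was higher and 61 lower in BBB, and 2 and 58 in BCB. There 12624 of all 15274 genes were lower in BBB and 12421 in BCB. None of the 73 was called in the strain comparisons or the interaction by limma, with 7, 8 and 9 at an unadjusted p under 0.05. Among carriers the largest fall was that of Slc16a1, the lactate and pyruvate transporter MCT1, from 331 ± 71.4 to 5.05 ± 2.63 in BBB (−4.03) and from 377 ± 30.4 to 2.83 ± 2.59 in BCB (−4.39). Its treated means lay under the level of the filter (10.8 to 14.1 over arrays), so the size of this fall depends on the pseudocount of 16. The largest rise was that of Slc2a9, a carrier of urate and hexoses (1.72 and 1.47). Of the risers named here and below, Slc2a9 (0.13) and Sirt3 (0.01) in BBB and Slc25a13 in BCB (0.53) were above 0 on the poly-A control scale.

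Among the other glycolysis and gluconeogenesis genes, 6 of 26 were higher and 10 lower in BBB, and 7 and 11 in BCB. Ldhd, the D-lactate dehydrogenase, had the largest rise in BBB (1.74, with 1.74 in BCB), and Fbp1, fructose 1,6-bisphosphatase, in BCB (1.76, with 1.66 in BBB). Pgm3, which serves amino sugar synthesis, fell most (−2.59 and −2.37). Of 6 other genes of pyruvate dehydrogenase, 1 was higher and 3 lower in BBB, and 1 and 4 in BCB. Lipt1, a lipoyl transferase, rose (1.63 and 1.63). Pdp2, a phosphatase of the complex, had the largest fall in BBB, from 700.1 to 34.5 (−3.79, with −4.39 in BCB), and Lias, the lipoic acid synthase that makes the cofactor of Dlat and Dlst, in BCB, from 1004 to 32 (−4.43, with −3.65 in BBB).

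Of 14 other TCA cycle genes and carriers, 7 were higher and 1 lower in BBB, and 6 and 2 in BCB. Slc25a13, the mitochondrial aspartate and glutamate carrier, rose most (1.75 and 2.31), and Slc25a10, the dicarboxylate carrier, fell most (−1.29 and −1.14). Of 8 other pentose phosphate genes, 2 were higher and 3 lower in each kind. Prps1, which turns ribose 5-phosphate into the precursor of nucleotides, fell from 3151 ± 195 to 37 ± 16 in BBB (−5.95), and it fell in BCB too (−5.83). Of intensity + 16 these falls are 61.9-fold and 57-fold. Rpe, the ribulose phosphate epimerase, rose (1.25 and 1.56). Of 9 regulators, 1 was higher and 4 lower in each kind, with Sirt3, a mitochondrial deacetylase, up (1.65 and 1.24) and Mycn, a transcription factor, down (−2.58 and −2.37).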

How the data were processed

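Total RNA of two-cell embryos was extracted with a Picopure kit and biotin-labelled with an ENZO kit, per the labels' protocols, and hybridised to 16 one-colour arrays. The values deposited by the authors are linear intensities per probe set. Their software was not given in the sources used here, and the 2% trimmed mean was read from the values. All arrays differed in their values.

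Of 45101 probe sets, 51 control probe sets that name no mouse gene were left out of the tests. Of the 45037 probe sets of transcripts, the platform annotation names 1 gene for 34945, several for 932 and none for 9160. Probe sets at or above the 40th percentile of their array on at least 4 of 16 arrays were tested (31956, of 15274 genes), and a gene was read from its tested set with the highest mean log2 value. log2(intensity + 16) was fitted with limma 3.58.1 in R 4.3.3, with a mean for each group over all 16 arrays and an intensity trend, for 5 contrasts, and p-values were adjusted by Benjamini-Hochberg over all tested probe sets at 0.05. The procedure was checked on simulated arrays. Single measures of the arrays were compared with exact permutation tests.

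The members, gene lists and tests were chosen with earlier results of these data known. All members are named. Values on every array are given for entry, committed and switch steps and for the 4 largest rises and falls in each amanitin comparison, and further genes are named for the largest rise and fall in each list. Alternatives were 4 other scalings, pseudocounts of 1 and 64, no filter and one at the 60th percentile, a fit of the compared groups alone, averaging over a gene's probe sets, a replicate block, no trend, and each array left out. Promoter sequences are RefSeq's on GRCm38.p6. The number of arrays limits the precision.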

Additional observations from a re-analysis of the deposited data

Results flagged for a closer look

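In 6 of 184 sets of 4 arrays (46 members in 4 groups), 1 array stood apart from the other 3 by more than Dixon's critical value at the 95% level. Chance marks about 1 in 20 such sets, so this is no more than chance would mark. Hk1, a hexokinase, read 125 on untreated BCB replicate 1, against 248 to 257 on the other 3. Pgd, of the pentose phosphate pathway, was lowest on untreated BBB replicate 3 (2153, nearest 2457) and on untreated BCB replicate 4 (2076, nearest 2294). Dld, a subunit of pyruvate dehydrogenase, was highest on untreated BBB replicate 3 (127.8, nearest 110.8). Mdh1, cytosolic malate dehydrogenase, was lowest on untreated BBB replicate 4 (380.1, nearest 448.8). The kinase Pdk2 was lowest on untreated BCB replicate 3 (16.5, nearest 27.3). Hk1, Pgd, Dld, Mdh1 and Pdk2 stayed on the same side of their test in both kinds with the named array left out.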

How the results depend on the processing

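The counts of members called did not change by over 1.5 times with another pseudocount, filter, spread or reading of probe sets, nor with any array left out, and the scale of the arrays was the choice that moved them. Leaving out each array in turn gave 16 to 18 members higher and 18 lower in BBB, and 17 to 19 higher and 18 to 19 lower in BCB, and 0 in the strain comparisons and the interaction. Centred on medians, 26 were higher in BBB. Scaled to the hybridization controls, 8 were higher in BBB and 4 in BCB, and scaled to the poly-A controls 0 were higher and 43 lower in each kind, where at an unadjusted p under 0.05 limma put 0 higher in each kind and 44 lower in BBB and 43 in BCB. On that scale 12624 of all 15274 genes were lower in BBB and 12421 in BCB. With the replicate block 18 members were higher and 18 lower in BBB, and 19 and 18 in BCB, and Aldoa was the 1 changed call in each. No sign was seen that the numbers pair the arrays, since 1 of 16 same-numbered pairs correlated over 0.1 (−0.0873 to 0.106) and 5 of 16 arrays matched their own number best. With 4 arrays a group this check cannot show that no pairing exists.

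On the poly-A control scale these members had the opposite sign in BBB, in log2 units, counting those called on either scale: Aco1 −1.27, Aldoa −1.53, Cs −0.92, Dlat −0.58, Dld −1.51, Dlst −0.33, Fh1 −1.47 and Hk2 −1.18. Next came Ldhb −1.11, Me1 −0.43, Me2 −1.17, Mpc1 −1.79, Ogdh −0.82, Pdha1 −1.63, Pdk1 −1.09 and Pdk2 −0.70. The rest were Pdk3 −1.22, Pdp1 −1.45, Pfkm −0.73, Pfkp −0.87, Slc2a1 −0.55, Suclg1 −1.16, Suclg2 −0.59 and Tpi1 −1.71. In BCB they were Aco1 −1.18, Aldoa −1.54, Cs −0.91, Dlat −0.37, Dlst −0.44, Fh1 −1.60, Hk2 −1.06 and Idh1 −0.21. Next came Ldhb −1.16, Me1 −0.45, Me2 −0.89, Mpc1 −1.81, Ogdh −1.38, Pdha1 −1.64, Pdk1 −1.03 and Pdk2 −0.84. The rest were Pdk3 −1.04, Pdp1 −1.16, Pfkm −0.69, Pfkp −1.02, Slc2a1 −0.42, Suclg1 −0.88, Suclg2 −0.91 and Tpi1 −0.93. On the hybridization control scale they were Aco1 −0.0029, Hk2 −0.019, Mpc1 −0.51 and Tpi1 −0.45 in BBB. In BCB they were Aco1 −0.14, Aldoa −0.51, Fh1 −0.62, Hk2 −0.11, Ldhb −0.089 and Mpc1 −0.76, and also Ogdh −0.51, Pdha1 −0.61, Pdk3 −0.0059, Pdp1 −0.27, Pfkp −0.047 and Suclg1 −0.11. With a gene's probe sets averaged they were Cs −0.10, Idh3a 0.93, Ogdh −0.11 and Pdha1 −1.87 in BBB and Idh3a 0.86, Ogdh −0.50 and Pdha1 −1.52 in BCB. Centred on medians, Gapdh passed with the opposite sign at 0.28 and 0.19. The cause was not tested.

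Over all genes, calls in the strain comparisons were few and moved more. Untreated, 59 were higher and 41 lower, against 31 and 18 with a pseudocount of 1, and 99 and 110 with 64, 87 and 21 on the hybridization and 62 and 99 on the poly-A control scale, 102 and 117 with the compared groups alone, and 40 to 66 and 20 to 46 with an array left out, with the fewest lower without BBB replicate 4 (20), BBB replicate 3, BCB replicate 2 or BCB replicate 3 (23 each) or BBB replicate 1 (27). With amanitin 6 and 6 were called, against 0 and 0 under either control scaling (limma, with 260 higher and 1236 lower on the hybridization and 60 and 341 on the poly-A control scale at an unadjusted p under 0.05) and 3 to 18 and 1 to 22 with an array left out. In the interaction 10 and 29 were called, against 1 and 14 with a pseudocount of 1, and 0 to 14 and 18 to 31 with an array left out. The level an array had to reach in the filter lay between 10.8 and 14.1, and of the tested members Idh2 alone had group means under 14.1 (8.03 with amanitin in BBB and 13.1 in BCB). Precision is limited by how many arrays there are, and the median SE of a gene's difference was 0.166.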
